A study of Mus musculus with 4 samples.

Results

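Neuronal nuclei collected 1 day after a permanent stroke were compared with those of sham control mice, each set summed over its library. A barcode was taken as a neuron when it held more than 5000 UMIs (unique molecular identifiers, 1 for each captured RNA molecule) and at least 10 UMIs over Rbfox3, Snap25 and Syt1, which encode the neuronal nuclear protein NeuN and the synaptic proteins SNAP-25 and synaptotagmin-1. The rule took 677 of 778 barcodes in the day 1 library (87.0%, exact binomial 95% interval 84.5 to 89.3) and 1221 of 1303 in the sham control library (93.7%, 92.2 to 94.96). These 1898 nuclei were drawn from 2081 barcodes of that depth in both libraries and from 4825 in all 4 libraries of the series. At the neuronal threshold, 5 day 1 members and 10 sham members held 10 or 11 of these UMIs, and 8 and 21 barcodes with 8 or 9 of them were left out.

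Single-nucleus RNA-seq was run on forebrain hemispheres of male C57Black/6 mice aged 3 months. In the day 1 group the middle cerebral artery had been coagulated and cut through for good, a model that leaves a small lesion in the parietal cortex, and the hemisphere on the injured side was taken. The sham control group gave the other library, and libraries of day 3 and day 7 after occlusion are given beside them where they help. Each library was made from 3 hemispheres pooled before nuclei were prepared, so a whole hemisphere with a small lesion was sampled, and mice cannot be told apart. With 1 library a side there was no replicate: all intervals are 95% intervals for counting error only, and no p-value was computed.

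The surgical description names intact cortex as the control tissue while the design names forebrain hemispheres; striatal neurons were present in the sham library. The study's breakdown of nuclei by time point fits the day 3 and day 7 libraries only with their names exchanged, and the deposited names were kept. The 4 libraries held 23285489 to 42963698 UMIs. Neurons of the day 1 library were deeper, with a median of 14940 UMIs each against 9769 in sham, and their sums came to 11642589 and 14098917 UMIs. Mitochondrial UMIs made up a median of 0.129% and 0.0912%, and 28 and 23 members exceeded 1%. The libraries shared 1 member barcode.

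Neurons under metabolic or proteotoxic stress are known to make heat shock proteins. These chaperones refold damaged proteins, and their genes are switched on by heat shock factor 1, which binds repeats of the 5-base unit NGAAN in alternating orientation. Hspa1a and Hspa1b encode the inducible Hsp70, which is scarce in unstressed brain and is a classical marker of neurons that live through ischemia near an infarct. Other responses known after stroke include glucocorticoid target genes, immediate-early genes and the integrated stress response.

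Over the summed neurons, 12326 genes had at least 100 UMIs in both sums together. A level is the number of UMIs of a gene in every 1000000 UMIs of the summed neurons (CPM), and a fold is the ratio of day 1 to sham. Of the genes tested, 92 (0.746%) were at least 2-fold higher at day 1 and 37 (0.300%) at least 2-fold lower. At 1.5-fold the counts were 461 (3.74%) and 213 (1.73%). The median log2 ratio was 0.04, and the middle 50% of all genes lay between -0.11 and 0.18. Many of the genes past 2-fold were scarce: 44 of the 92 were under 10 CPM at day 1 and 18 of the 37 were under 10 CPM in sham. Fewer neurons that express a gene and less of its RNA per neuron cannot be told apart in these sums.

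**Figure D1:**
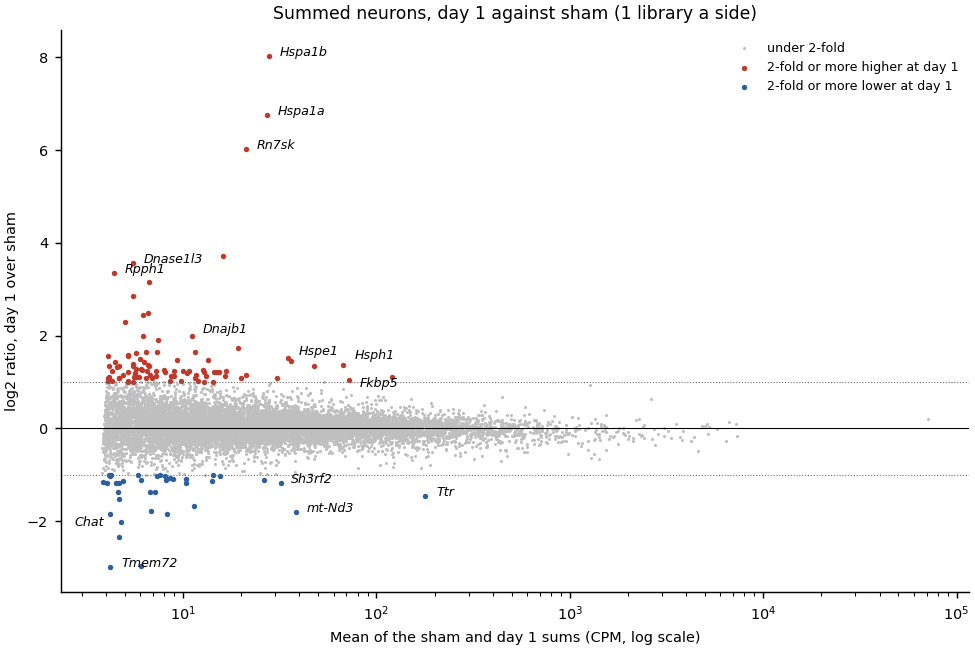
Each point is 1 of 12326 genes, with the mean of its sham and day 1 levels (CPM, log scale) across and the log2 ratio of day 1 over sham upwards. Red points are the 92 genes at least 2-fold higher, blue points the 37 at least 2-fold lower, and dotted lines mark 2-fold; Hspa1b (8.03, its sham sum of 2 UMIs set to 3), Hspa1a (6.76) and Rn7sk (6.03) stand above all other genes.

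The heat shock genes held the widest differences. Hspa1a was read at 7 UMIs in sham neurons and 628 at day 1, which is 0.496 CPM in sham, 53.9 CPM at day 1, 0.849 CPM at day 3 and 0.887 CPM at day 7. Hspa1b was read at 2 UMIs in sham and 648 at day 1, or 0.142, 55.7, 0.453 and 0.355 CPM in the same order. Both genes were high in the day 1 library and near 0 in the other 3. The pair is treated as 1 quantity from here, since near-identical copies can share reads. Their sum rose from 0.638 CPM (0.292 to 1.21) to 110 CPM (104 to 116), a ratio of 172 (90.2 to 376). Hspa1a (chr17:34969190-34972156, minus strand, GRCm38) overlaps the annotated gene Gm20481 on the opposite strand, whereas Hspa1b (chr17:34956436-34959238, minus strand) overlaps none.

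The 250 bases before the start of each gene are shown because the pair rose together and because the binding unit of heat shock factor 1 can be read in them. Both come from RefSeq (GRCm38.p6), Hspa1a from chr17:34972157-34972406 and Hspa1b from chr17:34959239-34959488, each 5′ to 3′ on the minus strand. Capitals mark the only match to a pair of facing units, searched as GAANNTTC or TTCNNGAA, which are their own reverse complements.
Hspa1a: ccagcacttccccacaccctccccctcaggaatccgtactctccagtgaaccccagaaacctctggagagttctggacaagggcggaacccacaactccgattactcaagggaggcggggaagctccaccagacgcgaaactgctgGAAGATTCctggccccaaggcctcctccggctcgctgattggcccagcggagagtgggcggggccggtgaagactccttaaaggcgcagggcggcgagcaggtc
Hspa1b: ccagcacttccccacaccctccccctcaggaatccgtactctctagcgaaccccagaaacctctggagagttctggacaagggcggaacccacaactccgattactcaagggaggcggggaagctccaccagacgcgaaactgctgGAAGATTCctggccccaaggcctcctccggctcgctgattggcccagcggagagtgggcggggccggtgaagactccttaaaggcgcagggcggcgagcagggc
The windows were identical at 247 of 250 bases, and in each the match began 104 bases before the start. Such a pair occurred in 12.8% of the 32851 windows of this length in the table and in 7 of the 16 heat shock genes with a window there, so it is common and marks no site by itself. A longer run of 3 alternating units (GAANNTTCNNGAA or TTCNNGAANNTTC on either strand, each containing the pair) was found in 153 windows (0.466%), and 10 windows (0.0304%) held 2 or more. Hspe1 and Hspd1, which lie head to head and encode the mitochondrial chaperonins Hsp10 and Hsp60, shared such a window. In the 18-base stretch at chr1:55088059-55088076 (plus strand, GRCm38.p6), 89 bases before the Hspe1 start and 144 before an Hspd1 start, these runs overlap.
Hspe1 and Hspd1: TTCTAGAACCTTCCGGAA
Capitals mark the overlapping runs, a match by letters alone.

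Among the other chaperones, Dnajb1, an Hsp40 cochaperone of Hsp70, stood at 4.47 CPM in sham, 17.7 at day 1, 4.41 at day 3 and 3.46 at day 7. Hspe1 stood at 18.1, 51.6, 20.5 and 16.3 CPM in the same order, and Hsph1, the Hsp110 exchange factor of Hsp70, at 37.7, 97.3, 40.1 and 34.2 CPM. Each was highest at day 1, with the other 3 libraries close together. Their ratios to sham were 3.96 (2.97 to 5.34), 2.85 (2.46 to 3.32) and 2.58 (2.33 to 2.87). Hspd1 (1.75-fold, 1.50 to 2.03) and Hsp90aa1, the inducible Hsp90 (1.61-fold, 1.48 to 1.75), passed 1.5-fold but not 2-fold. Over the alternative settings the log2 ratio of Hsp90aa1 ran from 0.57 to 6.64 and that of Hspe1 from 0.99 to 6.00. The size of these rises was therefore not stable. Of 20 heat shock chaperones listed, 18 were tested; 5 were at least 2-fold higher and none lower, beside 0.746% and 0.300% of all genes. The list's median log2 ratio was 0.24, beside 0.04 for all genes. Hspb1, a small heat shock protein under the 100-UMI minimum, was read at 11 and 79 UMIs (0.780 and 6.79 CPM); it was picked out after its values were seen.

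The Hsp70 signal sat in a few nuclei. In the day 1 library 89 of 677 neurons held at least 1 UMI of the pair, 36 held 2 or more, 19 held 5 or more, 15 held 10 or more and 5 held 50 or more. In sham, day 3 and day 7 the 9, 23 and 14 neurons with the pair held 1 UMI each. The 15 neurons with 10 or more (2.22% of day 1 neurons, 1.25 to 3.63; 0 of 1221 in sham, where 3 counts would be 0.246% and the exact upper bound is 0.302%) carried 1163 of the 1276 UMIs, or 91.1%. Ranked by UMIs of the pair they held 455, 227, 138, 80, 59, 28, 27, 25, 25, 23, 21, 18, 14, 12 and 11, so 1 nucleus carried a large part of the sum. In these 15 nuclei total UMIs ran from 5384 to 60541 with a median of 21939, and 3 exceeded 1% mitochondrial UMIs.

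RNA free in the suspension was measured in barcodes of 100 to 1000 UMIs. There the pair stood at 10.5 CPM in sham and 128 CPM at day 1, so it was higher at day 1 outside nuclei as well. At the mean free RNA level, the total UMIs of the 15 nuclei would hold 0.687 to 7.72 UMIs of the pair each. The 15 had been picked as the highest of the 677 by the cut of 10. The spread of free RNA between barcodes, and its part in these nuclei, was not tested. The other 662 day 1 neurons held 113 UMIs, or 10.0 CPM, and 9.90% of the 101 barcodes over 5000 UMIs that were not members (median 6443 UMIs) held at least 1, against 13.1% of all day 1 neurons (median 14940). At this background, 1 or a few UMIs of the pair in a neuron were not read as expression. When the 5 day 1 barcodes with the highest scores from Scrublet, a scorer of doublets, were left out, none of them was among the 15. With so few left out, this cannot settle whether any of the 15 was a doublet.

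Neurons were put into 3 classes by fixed markers: glutamatergic (cortical and other excitatory neurons), striatal projection neurons and interneurons. Of the top 10 genes of each class by fold, 3, 4 and 4 were its own markers and 0 were markers of another class. Since the same markers had set the classes, this describes the classes and is no check of them. Hspa1b, Rn7sk and Hspa1a led the glutamatergic class. In glutamatergic neurons the Hsp70 pair went from 5 UMIs in sham to 1162 at day 1 (0.948 to 219 CPM, a ratio of 231, 98.7 to 712). In striatal projection neurons it went from 2 to 31, of which 23 lay in 1 nucleus, and in interneurons from 1 to 21 with at most 2 in any nucleus. Taken on these counts as read, with no minimum for the sham sum, the ratios were 30.4 (7.74 to 262) and 20.2 (3.25 to 835), so the few sham UMIs left them wide. At day 1 these classes stood at 14.7 and 9.01 CPM, beside 128 CPM in free RNA. Outside the 1 nucleus of 23 UMIs, such counts were not read as expression. Of the 15 Hsp70-high neurons, 12 were glutamatergic (80% against 41.2% of all day 1 neurons), 1 was classed as striatal and 2 had no class. The 1 classed as striatal held 6 UMIs of Slc17a7, a glutamatergic marker, beside 5 of Gad2, and 9.10% mitochondrial UMIs, so its class is uncertain. The difference between classes was not tested, with 1 library a side.

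**Figure D2:**
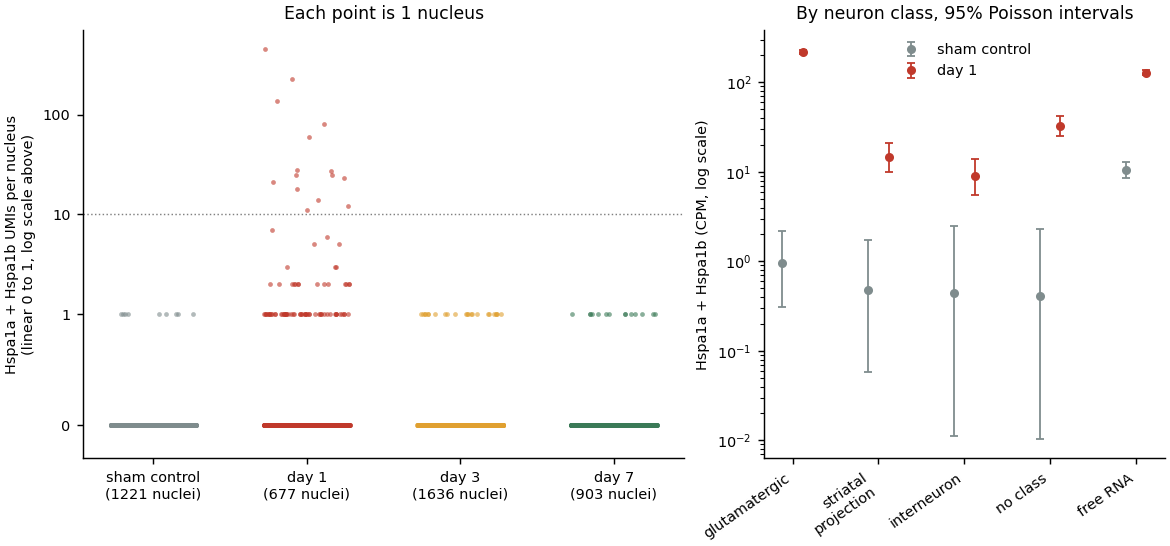
Left, UMIs of Hspa1a and Hspa1b in each neuron of the 4 libraries (1 point a nucleus, linear from 0 to 1 and a log scale above, dotted line at 10): 15 of 677 day 1 neurons reach the line and no neuron of sham, day 3 or day 7 holds more than 1. Right, the summed level by class in CPM (log scale, bars are 95% Poisson intervals) for sham in grey and day 1 in red, from 219 CPM in day 1 glutamatergic neurons to 9.01 CPM in interneurons, with free RNA at 128 CPM.

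The other chaperones also varied by class, which was not tested. In glutamatergic neurons Hsph1 went from 33.9 to 149 CPM, Hspe1 from 13.8 to 77.0 and Dnajb1 from 4.36 to 33.9. In striatal projection neurons these levels were 45.3 and 36.9 CPM, 18.8 and 25.1, and 5.30 and 1.42. Dnajb1 was thus read lower there at day 1, on a sum near the 3-UMI minimum. In interneurons the levels of the same genes were 30.4 and 45.1 CPM, 24.6 and 25.3, and 4.91 and 5.58. Hspb1 differed from these, with 3 and 44 UMIs in glutamatergic neurons, 6 and 4 in striatal ones and 0 and 24 in interneurons. The list median was 0.66 in glutamatergic neurons, -0.05 in striatal projection neurons and 0.08 in interneurons. Without the 15 Hsp70-high nuclei, a choice made after their values were seen, the pooled list median over the same genes was 0.07. The log2 ratio of Hsph1 was then 0.33 in place of 1.37, that of Hspe1 0.45 in place of 1.51, and that of Dnajb1 -0.26 in place of 1.99, so Dnajb1 turned from higher to lower. In all, 20 of the 92 genes were under 2-fold without these nuclei.

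The 12 glutamatergic Hsp70-high nuclei (317648 UMIs) were set beside the 267 other glutamatergic day 1 nuclei (4991241 UMIs) as a description, since they had been picked by their Hsp70 level and come from the same library. Hspa1a and Hspa1b were high there by selection. The 14 other heat shock chaperones measured were all at least 2-fold higher in them, beside 17.03% of 7029 genes. Their median log2 ratio was 2.93 (2.65 without the nucleus of most Hsp70), and that of all 7029 genes was 0.14, with 1197 genes 2-fold higher and 940 lower. Hsph1 stood at 1672 CPM against 51.9, Hsp90aa1 at 935 against 82.3, Hspe1 at 904 against 24.4, Dnajb1 at 504 against 4.01 and Hspd1 at 409 against 22.2. Every one of the 12 nuclei held Dnajb1, Hspe1, Hspd1 and Hsph1. Beside the Hsp70 pair that picked the nuclei, the difference thus took in an Hsp40, an Hsp90, an Hsp110 and the mitochondrial chaperonins.

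Other groups differed in these nuclei too. Of 17 cytosolic ribosomal protein genes measured, 12 were at least 2-fold higher (median 1.31, 0.79 without the top nucleus), beside 17.03% of the 7029 genes. So were 9 of 19 respiratory chain genes (0.93, 0.41 without that nucleus) and 4 of 5 immediate-early genes (1.67), the other being Klf10, past 2-fold lower. None of 15 AMPA, NMDA and kainate receptor subunits was higher and 6 were at least 2-fold lower (median -0.93), as were 4 of 5 metabotropic glutamate receptors (-1.13) and 6 of 21 neurexins, neuroligins and partners (-0.39), beside 13.4% of the 7029 genes. Very long genes were among the lowest: Il1rapl2, which codes for an interleukin-1 receptor accessory-like protein, held 3 UMIs against 1717 and Zfp804b 1 against 1804. Ratios moved with gene length, from a median of 0.75 for genes under 2 kb through 0.47, 0.32 and 0.11 to -0.54 for genes over 200 kb. Median UMIs were 24183 in these nuclei and 16680 in the others, and median mitochondrial UMIs 0.171% and 0.108%. The part of RNA quality, of nuclear subtype and of depth in these values was not tested.

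**Figure D3:**
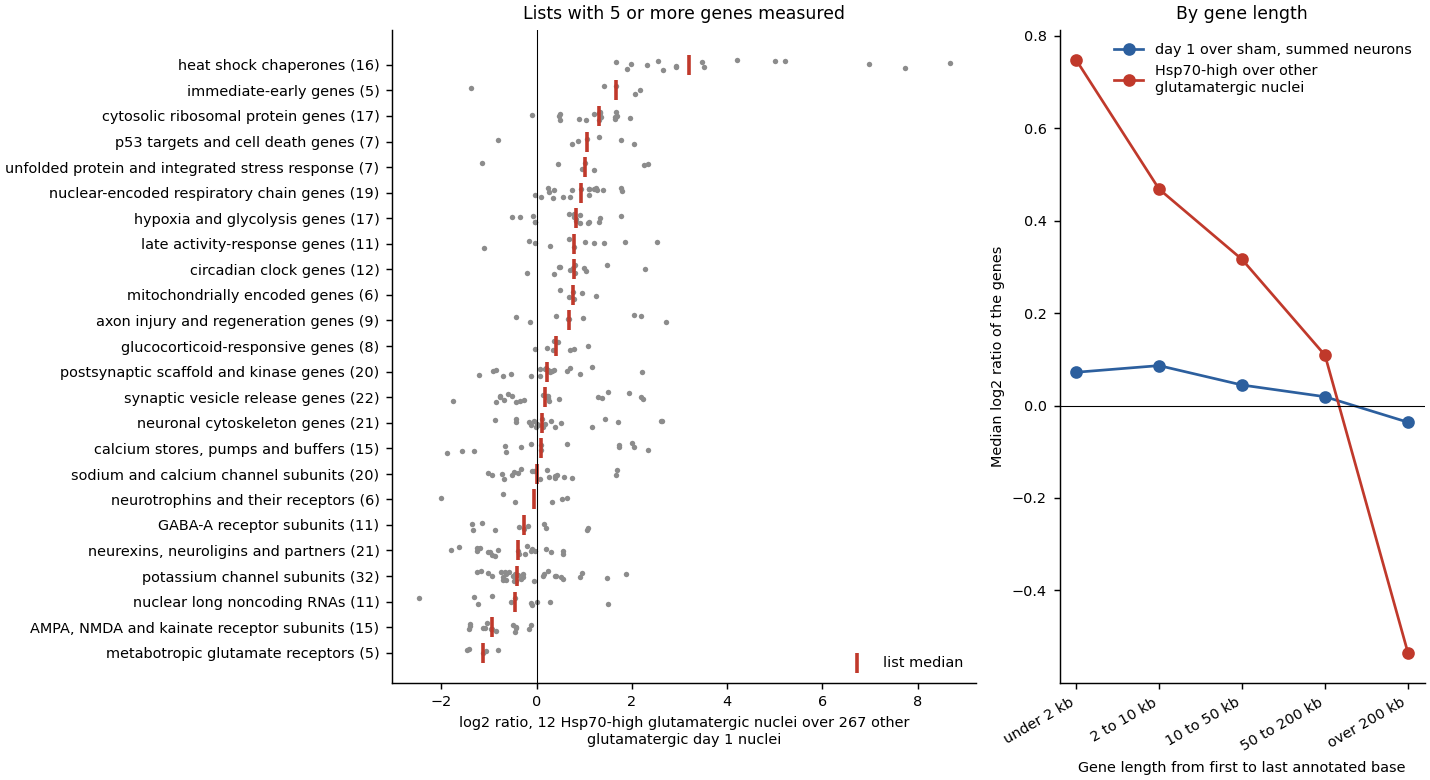
Left, log2 ratio of the 12 Hsp70-high glutamatergic nuclei over the 267 other glutamatergic day 1 nuclei for each gene (grey) of the lists with at least 5 genes measured (number in brackets), red bars being list medians, from 3.20 for heat shock chaperones (which include Hspa1a and Hspa1b, high by selection) to -1.13 for metabotropic glutamate receptors. Right, the median log2 ratio by gene length for the same comparison (red, 0.75 to -0.54) and for day 1 over sham in the summed neurons (blue, 0.07 to -0.04).

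Among glucocorticoid-responsive genes, Fkbp5 and Nfkbia passed 2-fold, and each was higher in all 3 neuron classes. Fkbp5, a cochaperone of the glucocorticoid receptor and one of its standard target genes, stood at 47.2 CPM in sham, 97.5 at day 1, 65.6 at day 3 and 53.4 at day 7, and was read in 405 day 1 and 417 sham nuclei. It was highest at day 1, 2.06-fold above sham (1.87 to 2.27). Its log2 ratio was 1.58 in glutamatergic neurons (27.7 to 82.5 CPM), 1.32 in interneurons (37.1 to 92.3) and 0.72 in striatal projection neurons (72.1 to 119), and 1.04 with the 15 Hsp70-high nuclei left out against 1.05 with them. Nfkbia, the inhibitor of NF-κB, was 2.36-fold higher (1.72 to 3.27, from 4.33 to 10.2 CPM), with log2 ratios of 1.06 in glutamatergic and 1.12 in striatal neurons and 2 and 37 UMIs in interneurons (ratio interval 4.59 to 152). Zbtb16, a zinc finger factor induced by the hormone, was at 88.3, 135, 144 and 112 CPM in sham and days 1, 3 and 7, so its highest value was not at day 1. The metallothionein genes Mt1 and Mt2, which encode metal-binding proteins, had log2 ratios of 0.71 and 0.55 in the sum and 1.48 and 2.18 in interneurons. Gfap, an astrocyte marker, and Vcan, an oligodendrocyte precursor marker, were also past 2-fold higher in that class only. The median there was 0.27 for astrocyte markers and -0.01 for microglial ones. In the free RNA Mt1 went from 895 to 1547 CPM, and its part in these values was not tested. Of 16 genes listed, 11 were tested, 2 were at least 2-fold higher, 4 at least 1.5-fold higher and none lower by either, beside 0.746% and 3.74% of all genes. The list's median was 0.18 in neurons and 0.39 in free RNA. Of the 11 genes 7 lay above 0, beside 57.2% of all genes, and among the others was the kinase gene Sgk1 (log2 ratio -0.30).

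Cdkn1a, the p53 target that encodes the cell cycle inhibitor p21, was read at 42 and 74 UMIs, 2.13-fold higher (1.44 to 3.19), and its log2 ratio of 1.09 was 0.25 without the Hsp70-high nuclei and 0.31 with 10% free RNA taken off. It was the only 1 of 12 tested p53 targets and cell death genes past 1.5-fold. Tuba1b, an alpha-tubulin gene, was 2.19-fold higher (10.4 to 22.7 CPM) and stayed near that level at day 3 (20.3) and day 7 (19.8). Rps29, a protein of the small ribosomal subunit, was 2.22-fold higher (13.1 to 29.0 CPM), with 26.9 CPM at day 3. Neither call held with 10% free RNA taken off, where both sums of each gene were at the 3-UMI minimum, and the log2 ratio of Rps29 was 0.71 among neurons under 1% mitochondrial UMIs. Of 21 tested ribosomal protein genes 19 lay above 0 and 4 passed 1.5-fold, beside 57.2% and 3.74% of all genes, and the median was 0.35, while in free RNA the median was 0.19 and among neurons under 1% mitochondrial UMIs it was 0.11.

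The remaining stress and activity lists held no gene past 2-fold, beside 0.746% higher and 0.300% lower of all genes. For lists of this size that is near the background. The 17 tested genes of the unfolded protein and integrated stress response had a median of 0.24 (0.19 without the Hsp70-high nuclei), and 14 lay above 0, beside 57.2% of all genes. Ddit4, an inhibitor of mTORC1 induced by many stresses, had a log2 ratio of 0.96 (4.82 to 9.36 CPM), or 0.48 without the Hsp70-high nuclei, and was the only 1 of the 17 past 1.5-fold higher with all neurons, while Phgdh, an enzyme of serine synthesis in the same list, was past 1.5-fold lower (-0.89). All 24 tested hypoxia and glycolysis genes were under 1.5-fold either way, beside 3.74% higher and 1.73% lower of all genes. Their median was 0.00. Of 16 tested immediate-early genes, which mark recent neuronal activity, 4 were above 0, beside 57.2% of all genes, and none passed 2-fold. The list's median was -0.24 (-0.42 without the Hsp70-high nuclei), but -0.14, 0.03 and -0.15 within glutamatergic, striatal and interneuron classes and -0.03 in free RNA. It ran from -0.39 to -0.04 over the alternatives, so its size was not stable. Fos was read at 76 and 50 UMIs, Arc had a log2 ratio of -0.53, Nr4a2 of -0.90 (14.5 to 7.73 CPM) and Jun, the 1 past 1.5-fold higher, of 0.60 (9.79 to 14.9 CPM), or 0.20 without the Hsp70-high nuclei. Of 20 axon injury and regeneration genes 13 were tested and none was 2-fold changed, which is near the background too. Hspb1, also in this list and too low to test, was read at 11 and 79 UMIs. Atf3, a regeneration factor, was read at 1 and 8 UMIs, too few to test.

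No gene of excitability or synapses on the fixed lists passed 2-fold in the summed neurons. Over 9 lists of glutamate and GABA-A receptors, potassium, sodium and calcium channels, calcium handling, vesicle release, postsynaptic scaffolds and adhesion, 180 genes were tested, and 0 were 2-fold higher and 0 lower, beside 0.746% and 0.300% of all genes, a share near the background for lists of this size. The list medians ran from -0.12 to 0.06. No gene was 1.5-fold higher, beside 3.74% of all genes, and 5 were 1.5-fold lower, beside 1.73%: Kcnk2 (TREK-1, a background potassium channel), Grm3 (mGluR3), Calb2 (calretinin), Scn4b (a sodium channel beta subunit) and Unc13c (a vesicle priming protein), of which Unc13c was lowest (219 to 120 CPM, log2 ratio -0.86). With the class shares of sham applied to both libraries, 1 of the 180 was past 1.5-fold lower.

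**Figure D4:**
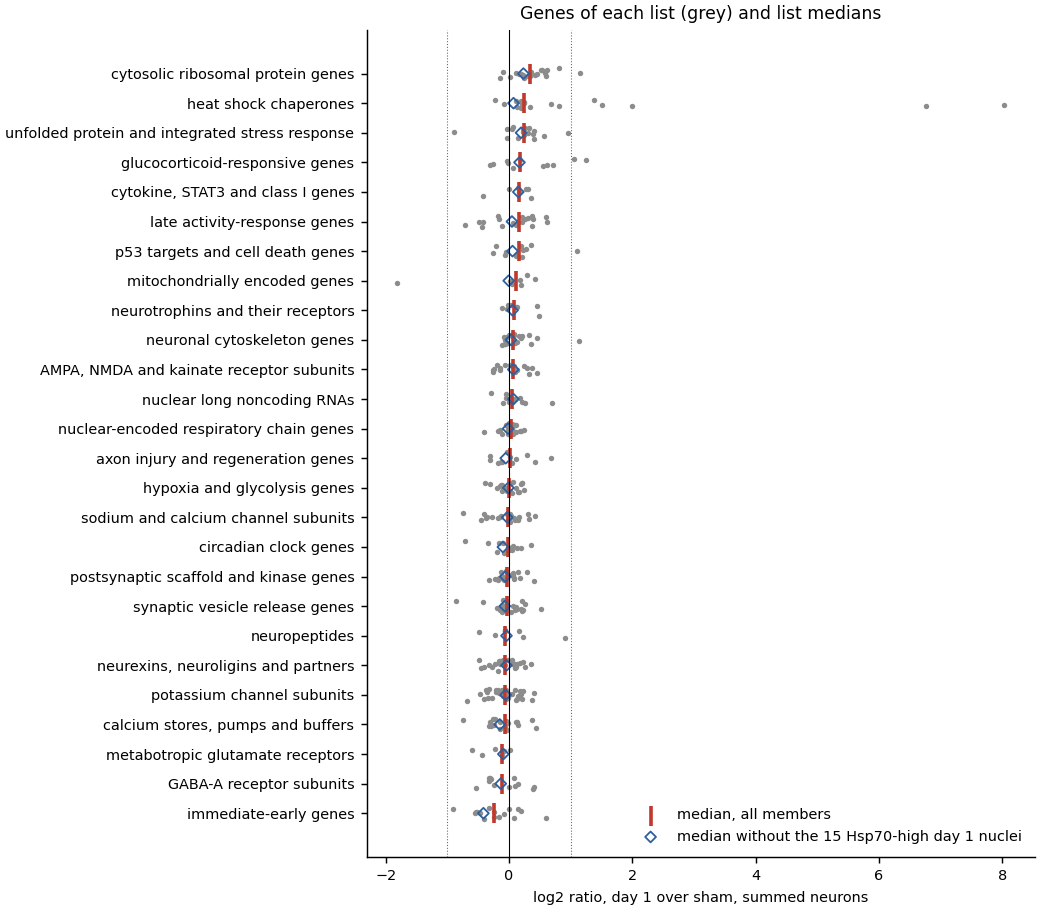
Log2 ratio of day 1 over sham in the summed neurons for each tested gene (grey) of the 26 fixed lists, with the list median over all neurons (red bar) and without the 15 Hsp70-high day 1 nuclei (blue diamond); dotted lines mark 2-fold. Medians run from 0.35 for cytosolic ribosomal protein genes to -0.24 for immediate-early genes, and that of heat shock chaperones goes from 0.24 to 0.07 without these nuclei.

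The libraries differed in which neurons they held. Striatal projection neurons made up 29.2% of sham neurons (26.6 to 31.8) and 19.8% at day 1 (16.9 to 23.0), beside 22.2% and 20.5% at days 3 and 7. Glutamatergic neurons made up 36.7% and 41.2%, and interneurons 18.1% and 22.9%. The 9 tested striatal markers were all lower in the pooled sum, 6 of them past 1.5-fold, with a median of -0.74. Within the striatal class the same median was -0.14. Pde10a, a striatal phosphodiesterase gene, went from 1568 to 1013 CPM in all neurons, with a log2 ratio of -0.63 there and -0.33 within the class. Drd2, the dopamine D2 receptor, had a log2 ratio of -0.50 in all neurons. With sham class shares, 15 of the 37 lower genes and 9 of the 92 higher genes no longer passed 2-fold. How the shares came to differ was not tested.

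Of the falls ranked by the fixed rule, Chat and Slc5a7 were the largest, followed by the miRNA gene Gm25252 (log2 ratio -1.84) and Prima1. Chat, which encodes choline acetyltransferase, was read at 7.66 CPM in sham, 1.89 at day 1, 3.11 at day 3 and 3.55 at day 7 (108 and 22 UMIs in sham and day 1, log2 ratio -2.02). Slc5a7, the choline transporter of the same neurons, was read at 6.53, 1.80, 3.68 and 4.17 CPM (log2 ratio -1.86), and Prima1, the membrane anchor of acetylcholinesterase, had a log2 ratio of -1.68 and was read in 137 sham nuclei. Sham was the highest library for Chat and Slc5a7. Nuclei with at least 3 UMIs of Chat and Slc5a7 numbered 14 of 1221 in sham (1.15%, 0.628 to 1.92) and 3 of 677 at day 1 (0.443%, 0.0915 to 1.29), intervals that overlap, and those 14 held 162 of 200 sham UMIs. Tacr1, the substance P receptor, had a log2 ratio of -1.14 in the sum and of 1.08 in glutamatergic neurons. Of the 15 largest falls, 5 overlapped another gene. Another low gene, mt-Nd3, went from 842 to 198 UMIs; 1 sham nucleus held 33.5% of them, and the gene is listed at 0 in day 3. Its free RNA stood at 113 and 101 CPM, while the whole mitochondrial list went from 3666 to 9650 CPM in free RNA. In neurons 7 of the list's 8 tested genes lay above 0 with a median of 0.10, which turned to -0.81 with 10% free RNA taken off and to -0.01 without the Hsp70-high nuclei.

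Among the 15 largest rises chosen by the fixed rule, 14 stayed past 2-fold without the Hsp70-high nuclei and 10 overlapped another gene. The rule leaves out genes with 20% or more of their UMIs in 1 nucleus, among them Hspa1a, Hspa1b and Dnajb1. The 14 was thus partly set by the rule. Free RNA moved in the same direction for all 15, and for 14 of the 15 largest falls, and its part was not tested. Rn7sk, the 7SK RNA that holds back transcription elongation, went from 9 to 486 UMIs (0.638 CPM in sham, 41.7 at day 1, 6.57 at day 3, 0.532 at day 7), 65.4-fold (34.2 to 144), with a log2 ratio of 4.37 without the Hsp70-high nuclei. It stood at 84.9 CPM in day 1 glutamatergic neurons and 1.42 in striatal ones. Its transcript is not polyadenylated in textbook accounts, and how it came to be captured was not tested. Poln, a DNA polymerase gene, went from 8.87 to 29.4 CPM and its antisense partner 4930557J02Rik from 1.99 to 11.2. Since strand use in counting is not given in the sources used here, reads of this pair cannot be told apart. Dnase1l3 (0.851 to 10.1 CPM) codes for a secreted DNase and Btk (1.70 to 8.33) for a kinase of B cells and myeloid cells. Without the Hsp70-high nuclei their log2 ratios went from 3.57 to 2.20 and from 2.29 to 1.16. For Dnah17, an axonemal dynein gene, the rise was from 5.53 to 17.4 CPM and was present in glutamatergic (1.28), striatal (2.32) and interneuron (1.86) classes. Adam2, which rose from 32 to 348 UMIs, fell outside the rule since 1 nucleus held 21.6% of its UMIs.

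**Figure D5:**
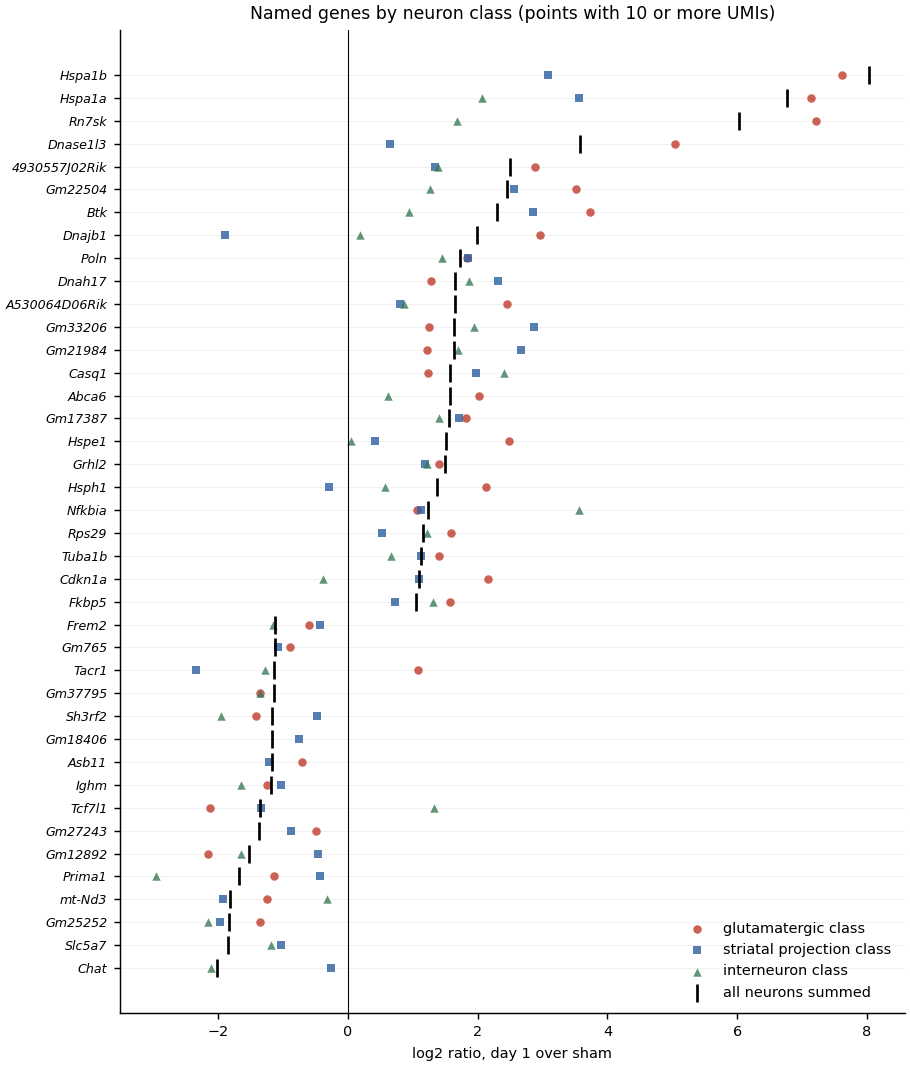
Log2 ratio of day 1 over sham for the genes named by rule and the list genes past 2-fold, in all neurons summed (black bar) and within glutamatergic (red circle), striatal projection (blue square) and interneuron (green triangle) classes; classes with under 10 UMIs of a gene are not drawn and sums under 3 UMIs are set to 3. Hspa1a is at 7.14, 3.56 and 2.06 in the 3 classes, whereas Fkbp5 is at 1.58, 0.72 and 1.32.

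Within classes, among genes with at least 100 UMIs in the class, the 2-fold counts were 73 higher (0.769%) and 22 lower (0.232%) of 9490 genes in glutamatergic neurons, 24 (0.321%) and 19 (0.254%) of 7487 in striatal projection neurons and 30 (0.434%) and 3 (0.0434%) of 6908 in interneurons. In the other libraries, 80 of the 92 higher genes were below their day 1 level at sham, day 3 and day 7, and 21 were at least 2-fold below it in all 3. Of the 37 lower genes, 30 were lowest at day 1 and 3 were at least 2-fold below all others. Both sets were picked by their ratio of day 1 to sham, so the sham part was fixed by that choice. Counting error in the day 1 levels also favours such counts. Their share over all genes is not given, so they are not read as a result.

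Markers of other cell types moved as well. The 7 tested microglial markers were all above 0 (median 0.45), and the list's sum went from 108 to 150 CPM in neurons and from 338 to 521 CPM in free RNA. The complement gene C1qa had a log2 ratio of 0.99, and C1qb, outside the list, one of 1.37, which put it among the 92 genes past 2-fold. Astrocyte markers summed to 878 and 778 CPM, those of oligodendrocytes to 319 and 266, those of endothelial cells and pericytes to 16.5 and 14.4, and those of ependymal and choroid plexus cells to 281 and 104. Ttr, a transport protein gene of the choroid plexus, fell by 1.45 on the log2 scale, and 48.3% of its sham UMIs lay in 1 nucleus. Free RNA was itself at least 1.5-fold higher for 63 of the 92 higher genes and at least 1.5-fold lower for 21 of the 37 lower ones. The part of free RNA and of nuclei of other cell types in the pooled ratios was not tested.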

How the data were processed

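The deposited files are UMI counts per gene and barcode, made by the authors from 10x 3′ single-nucleus libraries with STARsolo (STAR 2.7.3a, reads over whole gene bodies) on GRCm38, with no barcode filter; strand use is not given in the sources used here. From these counts, members were summed per library and scaled to CPM, with sums under 3 UMIs set to 3 in ratios, except those of the Hsp70 pair by class. Intervals are exact (Poisson, conditional binomial, Clopper-Pearson) at 95% and cover counting error only. No test across libraries was possible. Neurons were classed by their highest mean marker z-score with a margin of 0.2. Named genes were the 15 largest rises and 15 largest falls with at least 100 UMIs, in at least 10 nuclei of the higher library and with no nucleus holding 20% or more there, plus list genes past 2-fold and the 3 list members of most UMIs. Members and lists were chosen with earlier results of these data known. Doublets were left in, and Scrublet (scanpy 1.11.5) was an alternative that left out 14 sham and 5 day 1 barcodes. Gene positions are from GENCODE M21. The sums and intervals were tested on simulated data. Python 3.11.15, scipy 1.17.1 and edgeR 4.0.16 (TMM factors only) were used. Alternatives changed the thresholds, scaling, depth, weighting, free RNA, doublets, class shares and single nuclei.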

Additional observations from a re-analysis of the deposited data

How the results depend on the processing

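No paired analysis was possible because each group is 1 library, and no replicate could be left out for the same reason. The count of genes at least 2-fold higher, 92, was 48 with each nucleus thinned to 5000 UMIs, 243 with 10% free RNA taken off, 538 with a minimum of 20 UMIs per gene and 10 with a minimum of 500. The count at least 2-fold lower, 37, was 16, 106, 258 and 4 in the same order and 24 as a mean over nuclei. The cause of the thinned, free RNA and mean values was not tested. Under the other settings both counts stayed within 1.5 times, for example 82 and 48 with TMM factors. A threshold of 10000 UMIs left 588 of the 1221 sham neurons. Without the 15 Hsp70-high nuclei, an alternative added after seeing the data, Dnajb1 went from 1.99 to -0.26. Of the 40 genes named past 2-fold, 26 stayed past it and none changed sign under the 13 alternatives. The other 14 went under 2-fold, and their values nearest 0 were as follows. Thinning took Hspe1 to 0.99, Slc5a7 to -0.91, Asb11 to -0.75 and Gm37795 to -0.34. Sham class shares took Gm27243 to -0.90, Gm18406 to -0.68, Frem2 to -0.58 and Sh3rf2 to -0.53. Taking off 10% free RNA took Cdkn1a to 0.31 and Tuba1b and Rps29 to 0.28. A minimum of 20 neuronal UMIs took Fkbp5 to 0.99, the mean over nuclei took Tacr1 to -0.92 and a threshold of 10000 UMIs took Ighm to -0.94. The median of heat shock chaperones ran from 0.19 to 0.36 under them, and 10 of 26 list medians moved by over 0.1 under at least 1, among them that of mitochondrially encoded genes, from 0.10 to -0.81 with free RNA taken off. With 44 of the 92 higher genes under 10 CPM, counting error limits many of these calls.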
